A study of Arabidopsis thaliana with 6 samples.

Results

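The JASMONATE ZIM-DOMAIN (JAZ) genes encode the repressors of jasmonate signalling, and 10 of them are described here one by one: *JAZ1*, *JAZ2*, *JAZ3*, *JAZ5*, *JAZ6*, *JAZ7*, *JAZ8*, *JAZ9*, *JAZ10* and *JAZ12*. They were chosen by their locus identifiers, and all 10 were found among the 28775 genes of the count table. All 10 passed the filter on low counts that left 21206 genes for testing. *JAZ4*, *JAZ11* and AT3G22275, a locus annotated as a jasmonate ZIM-domain protein, are given beside them as the other members of the family.

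The libraries came from *Arabidopsis thaliana* seedlings that overexpressed JcERFVII2, a group VII ethylene response factor of *Jatropha curcas*, and from the parent accession. MA-Line1 carried the stabilized form, whose second residue is alanine in place of cysteine. MC-Line3 carried the wildtype form, which keeps that cysteine, and Col-0 carried no transgene. Both transgenes were driven by the cauliflower mosaic virus 35S promoter, which is active in most tissues, and each form was represented by a single line, so the form of the protein and the line cannot be told apart. Each group had 2 libraries of polyadenylated RNA from whole seedlings, grown in air under 16 h light and 8 h dark. The study's text places its hypoxia stress at the end of the light period. It does not state the hour at which the seedlings of these libraries were collected. The labels give an age of 10 days, and the study's own text gives another age. JcERFVII2 itself is not a row of the count table, so the transgene was not checked in these counts.

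JAZ proteins bind MYC2 and related transcription factors and hold their target genes silent by bringing in the adaptor NINJA and the TOPLESS co-repressors. When jasmonoyl-isoleucine, the active hormone, is present, the F-box protein COI1 takes up the hormone together with a JAZ protein, the JAZ protein is ubiquitinated and degraded, and the MYC factors are released. Many *JAZ* genes are themselves targets of MYC2, which forms a negative feedback loop, so that *JAZ* transcripts are widely used as early markers of jasmonate response. JAZ7 and JAZ8 carry an EAR motif and can contact TOPLESS without NINJA.

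The DNA just upstream of 3 members is printed here because the pair that moved most in MC-Line3 and a member that moved little there can be compared in it. The sequences are the 250 bases before the annotated start of each gene in the TAIR10.1 genome, written 5′ to 3′ on the strand of the gene, with the G-box CACGTG, the core element bound by MYC2, in capitals. *JAZ7* lies on the plus strand and its window is chr2:14572780-14573029, *JAZ8* on the plus strand with chr1:10596102-10596351 and *JAZ3* on the plus strand with chr3:6119457-6119706. No other annotated gene lies in these 3 windows.
JAZ7: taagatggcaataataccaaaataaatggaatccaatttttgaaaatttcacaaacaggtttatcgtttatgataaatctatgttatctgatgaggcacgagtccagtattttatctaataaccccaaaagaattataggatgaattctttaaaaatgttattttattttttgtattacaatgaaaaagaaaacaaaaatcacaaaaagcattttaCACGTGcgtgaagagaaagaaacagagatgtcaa
JAZ8: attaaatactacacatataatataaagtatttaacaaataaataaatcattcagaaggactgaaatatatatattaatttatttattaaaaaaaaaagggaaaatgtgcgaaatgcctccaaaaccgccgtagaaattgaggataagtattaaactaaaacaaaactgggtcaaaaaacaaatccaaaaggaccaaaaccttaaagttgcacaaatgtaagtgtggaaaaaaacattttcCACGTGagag
JAZ3: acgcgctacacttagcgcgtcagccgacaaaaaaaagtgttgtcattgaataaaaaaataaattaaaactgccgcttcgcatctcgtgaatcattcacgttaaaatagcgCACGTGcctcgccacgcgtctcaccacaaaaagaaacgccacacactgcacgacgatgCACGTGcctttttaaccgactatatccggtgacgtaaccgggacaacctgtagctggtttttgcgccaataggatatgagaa

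CACGTG reads the same on both strands. It stood 34 bases upstream of the *JAZ7* start, 10 bases upstream of *JAZ8*, 66 bases upstream of *JAZ2*, and at both 140 and 82 bases upstream of *JAZ3*. Thus 4 of the 9 members searched held it within 250 bases, against 6.49% of the 27444 protein-coding genes of the nuclear chromosomes. Within 500 bases 6 of the 9 held it, against 9.35% of those genes, since *JAZ9* had a match at 366 bases and *JAZ6* at 478 bases. AT3G22275 had a match 95 bases upstream. *JAZ5*, *JAZ10* and *JAZ12* had no CACGTG in the 500-base window. Variants of it were searched there on both strands as well. AACGTG was found in 4 of the 9, *JAZ3*, *JAZ5*, *JAZ6* and *JAZ12*, against 13.5% of genes. CACATG was found in 2 of the 9, *JAZ9* and *JAZ10*, against 21.1% of genes. The GCC-box GCCGCC, the element bound by many ethylene response factors, was searched on both strands and was present within 250 bases in 0 of the 9 members, against 1.87% of genes, and within 500 bases in *JAZ8* alone, against 4.12%. These matches describe letters in a window and were not tested for binding. The map of G-box matches shows how they were spread.

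**Figure D1:**
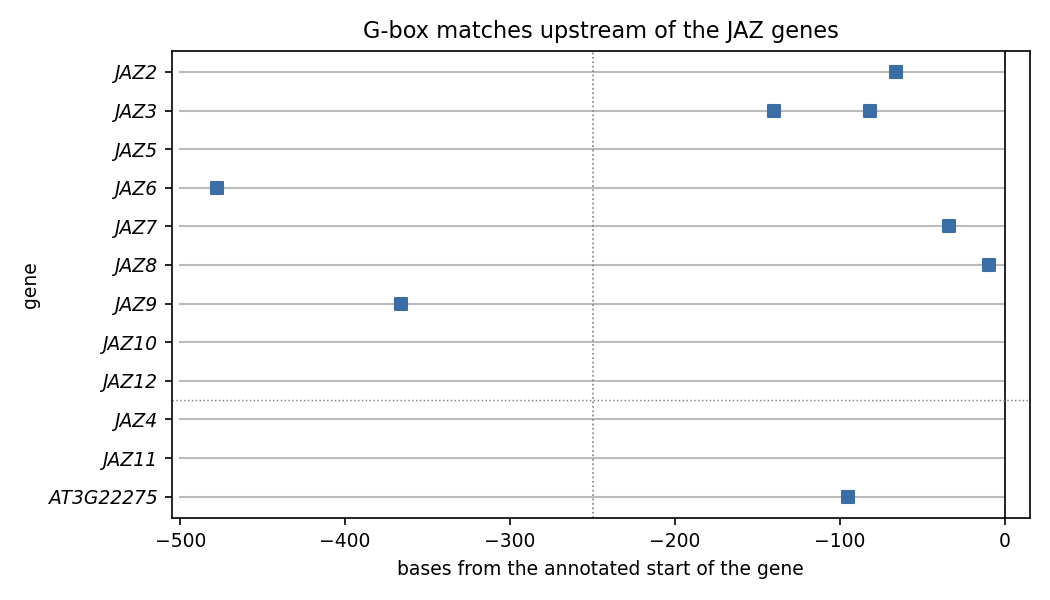
G-box matches upstream of 12 JAZ genes. The x axis gives bases from the annotated start of each gene, the y axis lists the genes, squares mark the first base of each match, and the dotted vertical line marks 250 bases. *JAZ2*, *JAZ3*, *JAZ7*, *JAZ8* and AT3G22275 have a match inside 250 bases, and *JAZ6* and *JAZ9* have one farther out.

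The 6 libraries held 53084008 to 65271057 counts each, and the 10 members took 0.0458 to 0.0487% of the counts in MA-Line1, 0.0386 to 0.0390% in MC-Line3 and 0.0615 to 0.0791% in Col-0. Values below are counts per 1000000 counts (CPM) after scaling for library composition. The Col-0 libraries differed in these genes: replicate 2 was above replicate 1 for all 10 members, by 0.03 on the log2 scale for *JAZ3* up to 0.77 for *JAZ10*, with a median of 0.34 against 0.01 over all genes tested. The members' median of the same difference was −0.08 between the MA-Line1 libraries and 0.08 between the MC-Line3 libraries. The 2 Col-0 libraries also differed in clock genes, most widely in *PRR5*, with 1803 counts in replicate 1 and 501 in replicate 2. *ELF4*, with 4.78 and 1.97 CPM, *TOC1*, *GI* and *PRR7* were also higher in replicate 1. *CCA1*, with 108 and 147 CPM, *LHY* and *PRR9* were higher in replicate 2. The seedlings were sampled whole, and fewer cells of a type and less RNA per cell cannot be told apart in such libraries. Summed over 6 root markers, the level was 1297 and 1380 CPM in MA-Line1, 2785 and 2344 CPM in MC-Line3, and 2986 and 2771 CPM in Col-0. Nearly all of that sum was *PYK10*, with 1286 and 1367 CPM in MA-Line1, 2749 and 2314 CPM in MC-Line3, and 2944 and 2724 CPM in Col-0. All 6 root markers were lower in MA-Line1 than in Col-0, and their part in the *JAZ* results was not tested. Within the exons of all 13 JAZ genes no stretch of 50 bases was found elsewhere in the genome.

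In Col-0 the family was dominated by a few members. To compare genes with each other, CPM was divided by the annotated exon length in kilobases. That length joined the exons of all annotated transcripts, 2215 bases from 7 transcripts for *JAZ10* and 1081 bases from 1 for *JAZ12*. The order of the members and their shares of a sum rest on that choice, and other lengths were not tried. On this scale *JAZ9* stood first in Col-0 with 134 ± 15 CPM per kb (SD, n = 2). *JAZ6* at 71.6 ± 16.1 and *JAZ12* at 71.0 ± 1.5 CPM per kb followed, and their Col-0 libraries overlapped. *JAZ2* at 60.0 ± 12.2 and *JAZ1* at 54.0 ± 9.9 CPM per kb overlapped as well. *JAZ7* came next with 30.2 ± 4.6 CPM per kb, *JAZ10* had 12.4 ± 4.6 CPM per kb, and the lowest members, *JAZ3*, *JAZ8* and *JAZ5*, lay between 6.96 and 7.20 CPM per kb with overlapping neighbours. *JAZ9* also stood first in MA-Line1, with 62.3 ± 2.7 CPM per kb and libraries that overlapped those of *JAZ12* at 59.8 ± 3.0 CPM per kb, and in MC-Line3, with 72.4 ± 1.6 CPM per kb above *JAZ12* at 63.7 ± 0.7 CPM per kb.

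**Figure D2:**
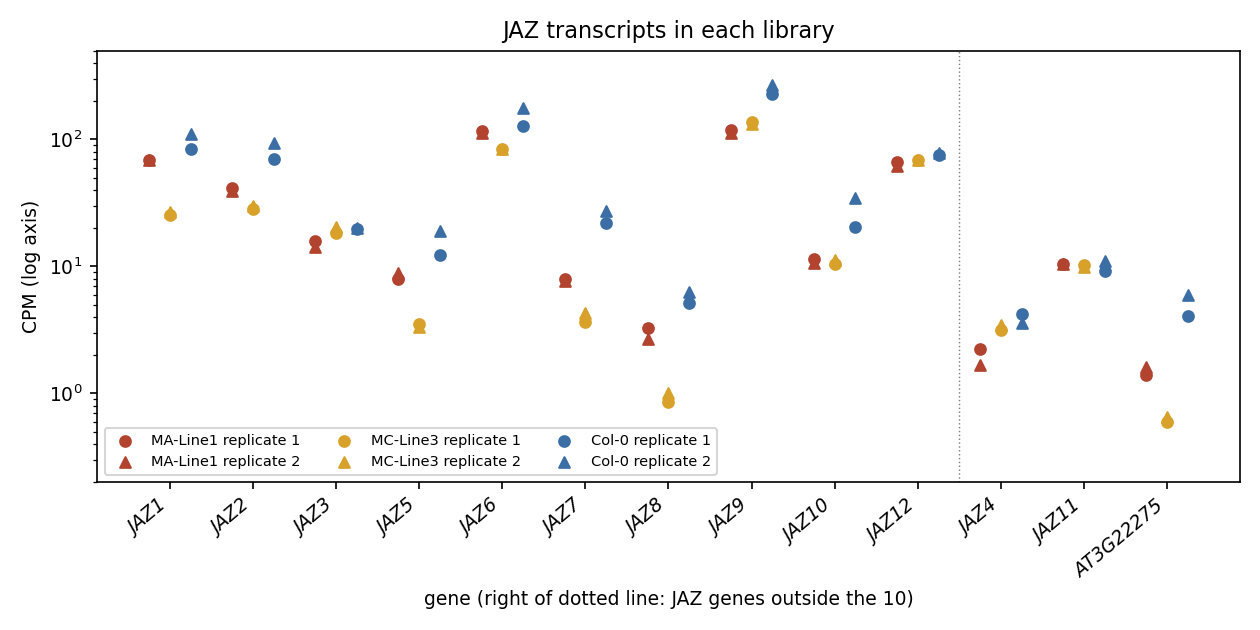
CPM of each JAZ gene in each library, on a log axis. Colours mark the 3 groups, circles replicate 1 and triangles replicate 2, and genes right of the dotted line are outside the 10 described members. Both overexpression lines lie below Col-0 for 9 of the 10 members, and for *JAZ3* the MC-Line3 points overlap those of Col-0.

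Set against Col-0, all 10 members were downregulated in MA-Line1 and 8 of the 10 in MC-Line3, and none was upregulated in either line. A gene was called where the quasi-likelihood test of edgeR gave an adjusted p below 0.05, by the method of Benjamini and Hochberg over all 21206 genes. By that rule 37.7% of all genes were called in MA-Line1 against Col-0, 18.2% as higher and 19.4% as lower. In MC-Line3 against Col-0 31.2% were called, 14.5% as higher and 16.8% as lower. The members' median log2 fold change was −0.92 for MA-Line1 and −1.43 for MC-Line3, beside 0.01 over all genes in each comparison. Sizes moved when 1 library was left out. For MA-Line1 against Col-0, *JAZ1* then ranged from −0.67 to −0.29 and *JAZ2* from −1.22 to −0.80. *JAZ5* ranged from −1.16 to −0.53 and *JAZ10* from −1.64 to −0.87 in that comparison. For MC-Line3 against Col-0, *JAZ5* ranged from −2.47 to −1.84 and *JAZ10* from −1.68 to −0.91. The 2 comparisons share their Col-0 libraries and are not independent of each other. The 2 libraries of a group are not stated to come from separate plantings, and p-values measure the spread between these libraries.

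The members *JAZ7* and *JAZ8* moved farthest in MC-Line3. *JAZ7* (AT2G34600, chr2:14573030-14573952), which has been linked to dark-induced leaf senescence, had 8.03 and 7.74 CPM in MA-Line1, 3.63 and 4.31 CPM in MC-Line3, and 22.2 and 27.5 CPM in Col-0. No libraries of different groups overlapped, and MC-Line3 was the lowest. Its log2 fold change was −1.66 ± 0.13 (SE) for MA-Line1 with an adjusted p of 5.8e-06, and −2.65 ± 0.14 for MC-Line3 with an adjusted p of 5.13e-07 (edgeR). In MC-Line3 138 of the 21206 genes, *JAZ7* included, had a log2 fold change as low or lower. *JAZ8* (AT1G30135, chr1:10596352-10597341), whose protein resists hormone-dependent degradation, had 3.27 and 2.66 CPM in MA-Line1, 0.851 and 1.01 CPM in MC-Line3, and 5.17 and 6.33 CPM in Col-0. The MC-Line3 values rest on 46 and 57 counts, the fewest of any member. The fold change of *JAZ8* on the log2 scale was −0.95 ± 0.18 for MA-Line1 (adjusted p = 0.00193) and −2.63 ± 0.23 for MC-Line3 (adjusted p = 1.86e-05).

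Among the members other than *JAZ7* and *JAZ8*, *JAZ1* and *JAZ5* showed the widest gap between the lines. *JAZ1* (AT1G19180, chr1:6621777-6623668), one of the first JAZ proteins shown to bind COI1, had 68.4 and 69.3 CPM in MA-Line1, 25.4 and 27.1 CPM in MC-Line3, and 84.8 and 110.0 CPM in Col-0. The 3 groups were fully separated. Its log2 fold change was −0.50 ± 0.11 for MA-Line1 (adjusted p = 0.00372) and −1.89 ± 0.11 for MC-Line3 (adjusted p = 9.36e-07), the last a 3.72-fold lower level. *JAZ5* (AT1G17380, chr1:5955155-5957511), which together with *JAZ10* limits sensitivity to the bacterial toxin coronatine, had 8.01 and 8.89 CPM in MA-Line1, 3.55 and 3.32 CPM in MC-Line3, and 12.2 and 18.9 CPM in Col-0. It had a log2 fold change of −0.89 ± 0.18 for MA-Line1 (adjusted p = 0.00273) and −2.19 ± 0.21 for MC-Line3 (adjusted p = 2.88e-05).

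*JAZ2* (AT1G74950, chr1:28148574-28150446), a repressor with a known role in stomatal guard cells, had 41.3 and 39.3 CPM in MA-Line1, 28.4 and 29.8 CPM in MC-Line3, and 70.6 and 94.4 CPM in Col-0. The groups did not overlap, and the log2 fold change was −1.04 ± 0.12 for MA-Line1 (adjusted p = 6.81e-05) and −1.50 ± 0.12 for MC-Line3 (adjusted p = 8.52e-06). *JAZ6* (AT1G72450, chr1:27273968-27276562), a member with circadian control and a role in defence against *Botrytis*, had 118 and 113 CPM in MA-Line1, 83.8 and 83.4 CPM in MC-Line3, and 128 and 177 CPM in Col-0. The MA-Line1 libraries lay just under the lower Col-0 library. Its log2 fold change was −0.40 ± 0.12 for MA-Line1 (adjusted p = 0.0212) and −0.87 ± 0.12 for MC-Line3 (adjusted p = 0.000382). The MA-Line1 call depended on single libraries: it was −0.15 with an adjusted p of 0.109 without Col-0 replicate 2, −0.43 with 0.083 without MA-Line1 replicate 1, −0.37 with 0.123 without MA-Line1 replicate 2, and −0.40 with 0.0512 without MC-Line3 replicate 1 (edgeR).

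*JAZ10* (AT5G13220, chr5:4218786-4221077), known for splice variants that resist degradation and annotated with 7 transcripts, had 11.4 and 10.7 CPM in MA-Line1, 10.5 and 11.3 CPM in MC-Line3, and 20.4 and 34.7 CPM in Col-0. The lines overlapped each other and both lay below Col-0, whose libraries differed most for this gene. The log2 fold change was −1.32 ± 0.20 for MA-Line1 (adjusted p = 0.000451) and −1.35 ± 0.20 for MC-Line3 (adjusted p = 0.000624). Counts were summed per gene, so splice forms were not separated. The exons of *JAZ10* share 71 bases, 3.21% of their length, with a non-coding gene on the other strand, and the library kit does not mark strand.

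*JAZ9* (AT1G70700, chr1:26654529-26657350), which can bind the DELLA repressors of gibberellin signalling, was the most abundant member per kilobase and was lower in both lines. It had 119 and 112 CPM in MA-Line1, 136 and 132 CPM in MC-Line3, and 230.0 and 268 CPM in Col-0. Every library of either line was far below every Col-0 library. Its log2 fold change was −1.11 ± 0.08 for MA-Line1 (adjusted p = 4.78e-06) and −0.89 ± 0.08 for MC-Line3 (adjusted p = 2.58e-05). *JAZ3* (AT3G17860, chr3:6119707-6123044), the gene of the dominant jasmonate-insensitive mutant *jai3*, had 15.9 and 14.3 CPM in MA-Line1, 18.3 and 20.3 CPM in MC-Line3, and 19.6 and 20.0 CPM in Col-0. MC-Line3 overlapped Col-0, and MA-Line1 lay below both. The log2 fold change of *JAZ3* was −0.39 ± 0.10 for MA-Line1 (adjusted p = 0.0093), and −0.04 for MC-Line3 with a 95% interval of −0.25 to 0.18 (adjusted p = 0.805). Without MA-Line1 replicate 2 the MA-Line1 value became −0.32 with an adjusted p of 0.111.

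*JAZ12* (AT5G20900, chr5:7090704-7092539), whose protein is kept low by the ubiquitin ligase KEEP ON GOING, had the smallest estimated change in MA-Line1. It had 66.9 and 62.3 CPM in MA-Line1, 68.4 and 69.4 CPM in MC-Line3, and 75.6 and 77.9 CPM in Col-0. The groups were close together and did not overlap. The log2 fold change was −0.25 ± 0.07 for MA-Line1 (adjusted p = 0.0168), and −0.16 for MC-Line3 with a 95% interval of −0.31 to 0.00 (adjusted p = 0.114). Leaving out either MA-Line1 library ended that line's call, at −0.30 with an adjusted p of 0.0615 without replicate 1 and −0.20 with 0.187 without replicate 2 (edgeR). *JAZ12* shares 28 exon bases with AT5G20910, a protein-coding gene on the other strand with 521 to 973 counts in these libraries, and 21 with a non-coding gene, and without strand these reads cannot be told apart. When libraries were scaled by their total counts alone, the median log2 fold change of all genes between MA-Line1 and Col-0 moved up. In that comparison *JAZ3*, *JAZ6* and *JAZ12* then stood at −0.22, −0.24 and −0.08 without being called.

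**Figure D3:**
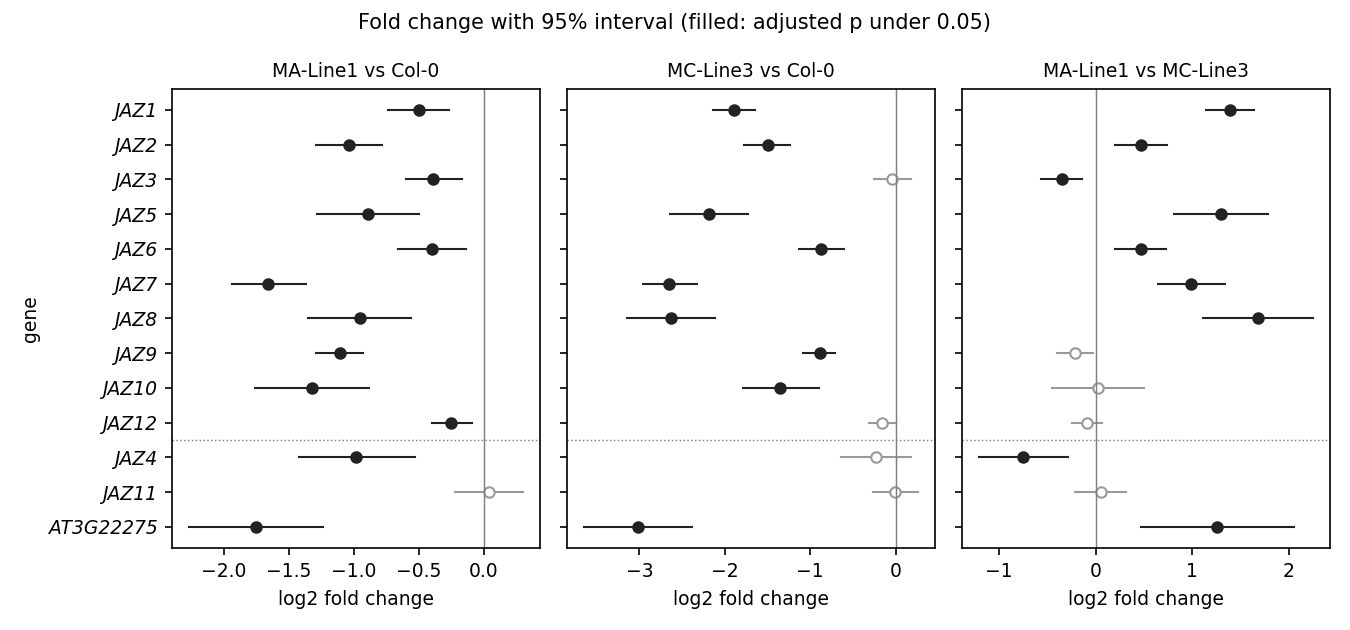
Log2 fold change of each JAZ gene in the 3 comparisons, with bars for the 95% interval. Filled points have an adjusted p below 0.05 and open points do not, and genes below the dotted line are outside the 10 members. All 10 members lie left of zero in MA-Line1 against Col-0, and *JAZ3* and *JAZ12* are the open points among the 10 in MC-Line3 against Col-0.

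MA-Line1 was compared directly with MC-Line3 to ask whether the line with the stabilized form differed from the line with the wildtype form. Of the 10 members 6 were higher in MA-Line1 and 1 was lower, where 20.1% of all genes were called, 11.4% as higher and 8.63% as lower. The median log2 fold change of the members was 0.47, beside −0.01 over all genes. *JAZ8* differed most at 1.68 ± 0.26 (adjusted p = 0.000926), followed by *JAZ1* at 1.39 ± 0.11 (adjusted p = 1.19e-05), *JAZ5* at 1.3 ± 0.22 (adjusted p = 0.00171) and *JAZ7* at 0.99 ± 0.16 (adjusted p = 0.0012). In all 4 the MC-Line3 libraries were the lowest of the 3 groups. *JAZ2* and *JAZ6* were each higher by a log2 fold change of 0.47, with adjusted p of 0.0186 and 0.0189, and *JAZ3* was lower at −0.35 (adjusted p = 0.0266; edgeR).

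The calls of *JAZ2*, *JAZ3* and *JAZ6* between the lines were lost when any MA-Line1 or MC-Line3 library was left out, which left 4 members called in each case. Without MA-Line1 replicate 1, MA-Line1 replicate 2, MC-Line3 replicate 1 and MC-Line3 replicate 2 in turn, *JAZ2* stood at 0.43, 0.50, 0.45 and 0.50, *JAZ3* at −0.43, −0.28, −0.41 and −0.28, and *JAZ6* at 0.44, 0.49, 0.48 and 0.46. *JAZ9*, *JAZ10* and *JAZ12* were not called. The difference of *JAZ9* was −0.22 with a 95% interval of −0.40 to −0.03 (adjusted p = 0.0969), and it was called at −0.20 (adjusted p = 0.0133; edgeR) without either Col-0 library. *JAZ10* differed by 0.02 with an interval of −0.45 to 0.50, and *JAZ12* by −0.09 with an interval of −0.25 to 0.06.

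The make-up of the JAZ transcript pool differed along with its size. The 10 members summed to 278 and 265 CPM per kb in MA-Line1, 229 and 232 CPM per kb in MC-Line3, and 408 and 502 CPM per kb in Col-0. *JAZ12* supplied 22.3 and 21.8% of that sum in the MA-Line1 libraries, 27.6 and 27.7% in those of MC-Line3, and 17.2 and 14.4% in those of Col-0. *JAZ9* supplied 23.1 and 22.8% in the MA-Line1 pool, 32.1 and 30.7% in MC-Line3, and 30.4 and 28.8% in Col-0. The share of *JAZ1* was 13.7 and 14.5% in the MA-Line1 pool, 6.13 and 6.47% in the MC-Line3 pool, and 11.5 and 12.1% in Col-0. *JAZ7* fell to 3.51 and 3.55% of the pool in MA-Line1 and to 1.92 and 2.26% in MC-Line3, against 6.61 and 6.66% in Col-0. For *JAZ1*, *JAZ7* and *JAZ12* the libraries of the 3 groups did not overlap. These shares were not tested.

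**Figure D4:**
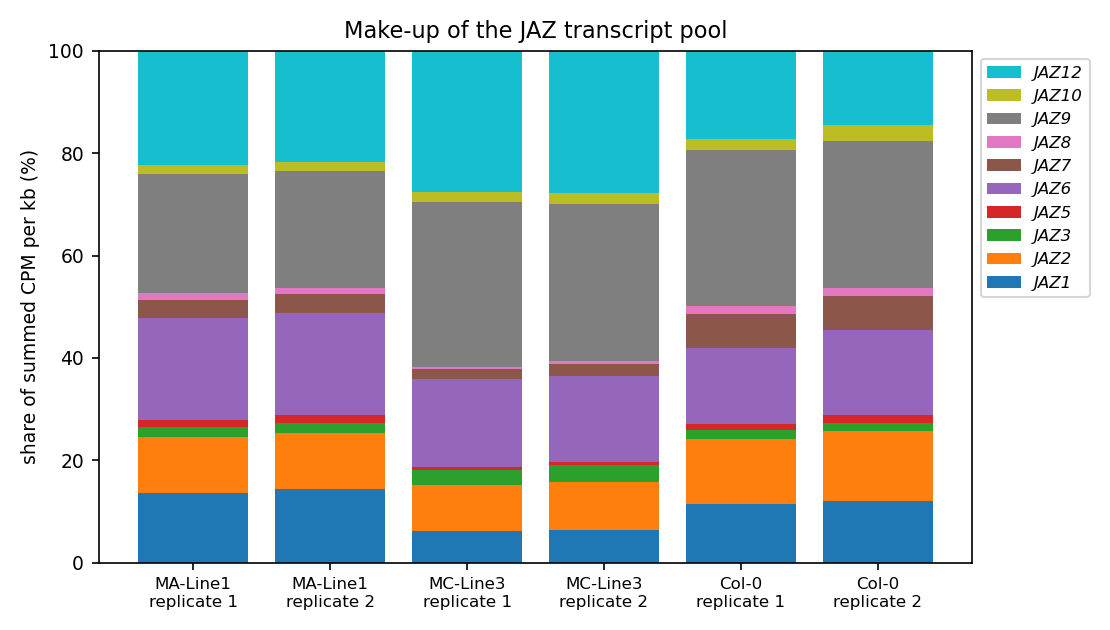
Share of each member in the summed CPM per kb of the 10 JAZ genes, in percent, for each library. Each stacked bar is 1 library. The *JAZ12* band is widest in MC-Line3 (27.6 and 27.7%), and the *JAZ7* band is widest in Col-0 (6.61 and 6.66%).

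The 3 remaining JAZ genes were not alike. AT3G22275 had 1.40 and 1.60 CPM in MA-Line1, 0.592 and 0.654 CPM in MC-Line3, and 4.09 and 5.93 CPM in Col-0, and its groups did not overlap. Its log2 fold change was −1.75 ± 0.23 for MA-Line1 (adjusted p = 0.000198) and −3.01 ± 0.29 for MC-Line3 (adjusted p = 3.09e-05). Both estimates lie below those of the 10 members, and that difference was not tested. *JAZ4* had 2.22 and 1.69 CPM in MA-Line1, 3.18 and 3.43 CPM in MC-Line3, and 4.19 and 3.60 CPM in Col-0. It was lower in MA-Line1 at −0.98 ± 0.20 (adjusted p = 0.00323), and stood at −0.23 for MC-Line3 (adjusted p = 0.382). *JAZ11* had 10.4 and 10.5 CPM in MA-Line1, 10.3 and 9.91 CPM in MC-Line3, and 9.25 and 10.99 CPM in Col-0, and was called in no comparison (edgeR). Of 6 other genes with the TIFY domain, which mark the wider family, 1 was lower in each line and 0 were higher. They were *TIFY8* in MA-Line1 and *ZIM* in MC-Line3, and their calls were lost under 4 and 8 of the 14 alternative settings.

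Most genes of the receptor and co-repressor complexes stayed uncalled against Col-0, and so did most of all genes tested. Uncalled were 4 of 5 receptor genes and 7 of 8 co-repressor genes for MA-Line1, and 3 and 6 for MC-Line3. Over all genes 37.7% passed the threshold for MA-Line1 and 31.2% for MC-Line3. These shares were not compared by a test. The counts of this and the following lists stand beside 18.2% of all genes called higher and 19.4% lower in MA-Line1, and 14.5% higher and 16.8% lower in MC-Line3. Of 5 genes of the receptor complex *RBX1*, which encodes the RING subunit of the ubiquitin ligase, was called higher in both lines, at 0.25 for MA-Line1 and 0.24 for MC-Line3, and these calls were lost under 2 and 5 of the 14 alternatives. *COI1* was the 1 gene of the complex called lower, in MC-Line3. *COI1*, the receptor, had 50.6 and 50.3 CPM in MA-Line1, 42.3 and 42.9 CPM in MC-Line3, and 52.0 and 57.2 CPM in Col-0. It stood at −0.11 for MA-Line1 (adjusted p = 0.252) and was lower at −0.36 ± 0.08 for MC-Line3 (adjusted p = 0.00455). *NINJA*, the adaptor, had a log2 fold change of 0.08 for MA-Line1 and −0.05 for MC-Line3, with adjusted p of 0.458 and 0.683. Of 8 co-repressor genes 1, *TPR3*, was higher in MA-Line1, a call lost under 8 of the 14 alternatives, and 2, *TPR2* and *TPR4*, were lower in MC-Line3. The *TPR2* call was lost with library size alone and without either MC-Line3 library, which left 1 lower.

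*MYC2*, the main transcription factor that JAZ proteins hold in check, had 76.8 and 77.5 CPM in MA-Line1, 57.1 and 54.3 CPM in MC-Line3, and 236 and 311 CPM in Col-0. Its log2 fold change was −1.83 ± 0.11 for MA-Line1 (adjusted p = 1.19e-06) and −2.30 ± 0.11 for MC-Line3 (adjusted p = 2.92e-07). *MYC3*, its close relative, stood at −0.08 for MA-Line1 and −0.19 for MC-Line3 and was not called, and *MYC4* was lower at −0.40 for MA-Line1 (adjusted p = 0.0268) and −0.50 for MC-Line3 (adjusted p = 0.0123; edgeR). The *MYC4* call in MA-Line1 was lost at −0.40 without MA-Line1 replicate 1, at −0.40 without MA-Line1 replicate 2 and at −0.25 without Col-0 replicate 2, and that in MC-Line3 at −0.32 without MC-Line3 replicate 2. *JAM1*, a bHLH repressor that competes with MYC2, was lower at −1.36 for MA-Line1 and −1.84 in MC-Line3. Of the 15 tested transcription factors that JAZ proteins bind, 2 were higher and 4 lower in MA-Line1, and 0 were higher and 4 lower in MC-Line3. The fourth lower gene in each line was *EIN3*, a regulator of ethylene response, at −0.26 for MA-Line1 and −0.24 for MC-Line3, and its calls were lost under 4 and 6 of the 14 alternatives. Leaving out either MA-Line1 library took the MA-Line1 count of lower genes to 2, and leaving out MC-Line3 replicate 2 took the MC-Line3 count to 2. The upregulated pair in MA-Line1 was *TT8*, a regulator of flavonoid synthesis, at 1.88 (adjusted p = 0.0019; edgeR), and AT4G00870, a bHLH gene, at 2.04, which was not called at 1.56 without MA-Line1 replicate 2. Both rest on few counts. *TT8* had 83 and 69 counts in MA-Line1 and 17 and 21 in Col-0, and AT4G00870 had 40 and 63 against 10 and 13.

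Of the 11 tested genes of jasmonate synthesis, 1 was higher and 7 were lower in each line. The counts depended on single libraries and on the scaling. With library size alone 5 were lower in each line, and 2 were higher in MC-Line3. *LOX3*, a 13-lipoxygenase, had 22.3 and 21.8 CPM in MA-Line1, 17.1 and 17.5 CPM in MC-Line3, and 46.3 and 56.5 CPM in Col-0. The gene that rose was *LOX2*, a 13-lipoxygenase of leaf chloroplasts, at 0.73 for MA-Line1 (adjusted p = 4.48e-05) and 0.68 for MC-Line3 (adjusted p = 9.46e-05; edgeR). Of 10 tested genes of jasmonate turnover, 3 were higher and 4 lower in MA-Line1, and 1 was higher and 7 lower in MC-Line3. These counts depended on single libraries: 1 was higher in MA-Line1 without MA-Line1 replicate 1, 2 were lower in MA-Line1 without MA-Line1 replicate 2 or Col-0 replicate 2, 3 were lower in MC-Line3 without MC-Line3 replicate 2, and 0 were higher in MC-Line3 without either MC-Line3 library or Col-0 replicate 2. *CYP94B1*, which oxidises the active hormone, was the lowest of them in MA-Line1 at −2.58 (adjusted p = 1.23e-06; edgeR), against −1.36 in MC-Line3. *CYP94C1* and *CYP94B3* of the same list were instead lowest in MC-Line3. *CYP94C1* stood at −0.13 for MA-Line1, where it was not called, and at −2.15 for MC-Line3. *CYP94B3* had 2.17 and 2.02 CPM in MA-Line1, 0.555 and 0.371 CPM in MC-Line3, and 3.24 and 4.74 CPM in Col-0.

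Outputs of the pathway fall into a MYC branch, linked to wounding, and an ERF branch, linked to defence against pathogens. Of 5 genes of the MYC branch, 1 was higher and 3 lower in MA-Line1, and 0 were higher and 3 lower in MC-Line3. The higher gene was *TAT3* at 0.36, and its call was lost under 7 of the 14 alternatives, among them the replicate block and leaving out any library but Col-0 replicate 2. Without MA-Line1 replicate 1 or Col-0 replicate 2, 2 were lower in MA-Line1, and without MC-Line3 replicate 2, 2 were lower in MC-Line3. *ANAC019*, a NAC factor downstream of MYC2, was lower at −0.95 for MA-Line1 and −2.47 in MC-Line3. Of 5 genes of the ERF branch, 4 were higher and 0 lower in MA-Line1, and 1 was higher and 3 lower in MC-Line3. Without MA-Line1 replicate 2 the higher genes in MA-Line1 numbered 2, with *ORA59* and *ERF1* no longer called. Without Col-0 replicate 1 the lower genes in MA-Line1 numbered 1, and without MC-Line3 replicate 2 or Col-0 replicate 2 the lower genes in MC-Line3 numbered 2. The defensin gene *PDF1.2* had 8.97 and 10.8 CPM in MA-Line1, 5.09 and 6.41 CPM in MC-Line3, and 0.670 and 1.02 CPM in Col-0, so it was higher in both lines. *ERF1*, a transcription factor of the ERF branch, was higher by 0.79 for MA-Line1 (adjusted p = 0.0107) and lower at −2.28 for MC-Line3 (adjusted p = 0.000336; edgeR), and the MA-Line1 call was lost at 0.69 without MA-Line1 replicate 2.

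**Figure D5:**
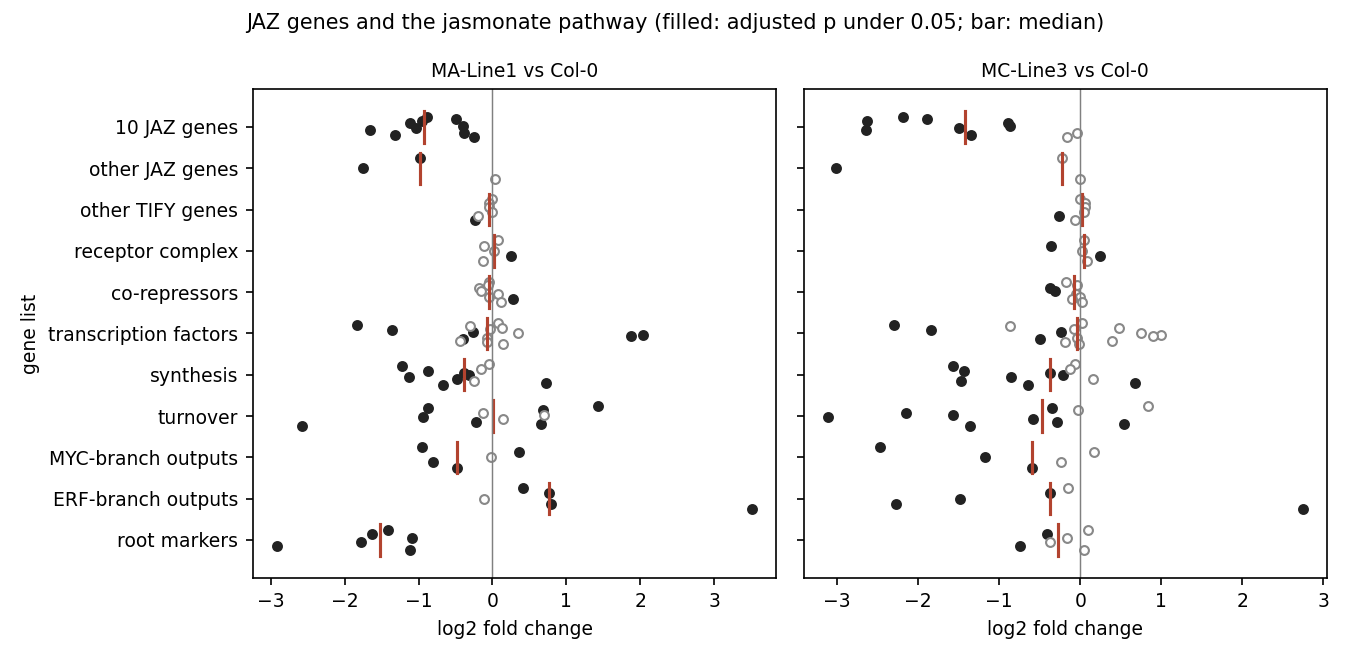
Log2 fold changes against Col-0 of the 10 JAZ genes and of lists around them, in MA-Line1 (left) and MC-Line3 (right). Each point is a tested gene, filled where its adjusted p is below 0.05, and each vertical bar is the median of a list. The JAZ medians are −0.92 and −1.43, the receptor complex and co-repressors lie near zero, and the root markers are lower in MA-Line1 with a median of −1.53, against −0.27 in MC-Line3.

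Across the 6 libraries the members did not follow a single pattern. Against the mean standardized log2 CPM of the 10, *JAZ2* had the highest correlation (r = 0.994) and *JAZ3* the lowest (r = 0.398). *JAZ1* and *JAZ3* had an r of −0.16. The libraries fall into 3 groups and these values are descriptions only. Among tested genes outside the 10 members, 2974 had group means that spanned at least 1 log2 unit. The 5 of these most like the mean pattern were led by *BBX18*, a B-box zinc-finger gene, AT1G58280 and AT1G19200, each with r = 0.998. *LTP4*, a lipid transfer protein gene, and *PAP16*, a purple acid phosphatase gene, followed, each with r = 0.996. *BBX18* had 14.9 and 13.9 CPM in MA-Line1, 11.5 and 12.3 CPM in MC-Line3, and 22.7 and 27.0 CPM in Col-0. *LTP4* had the widest range of the 5, with 11.1 and 8.90 CPM in MA-Line1, 6.38 and 5.78 CPM in MC-Line3, and 37.3 and 72.9 CPM in Col-0.

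Genes that respond within minutes to touch or stress also differed between the groups, and their part in the *JAZ* levels was not tested. Of 9 such genes 6 were lower in MA-Line1, with a median log2 fold change of −0.61 over the list, and 7 were lower in MC-Line3, with a median of −1.49. None was higher in either line. Of 8 circadian clock genes 3 were lower in MA-Line1, 4 were lower in MC-Line3 and 0 were higher in either line. The clock counts depended on the Col-0 libraries: without Col-0 replicate 1, 2 were called higher in MA-Line1 while MC-Line3 had 3. Without Col-0 replicate 2, 6 were lower and 1 was higher in MA-Line1, while MC-Line3 had 5 lower. Of 5 green tissue markers 4 were lower in MA-Line1 and 1 in MC-Line3, where 16.8% of all genes were called lower. Without MA-Line1 replicate 1 the MA-Line1 count was 1, and without either MC-Line3 library the MC-Line3 count was 0, while without either Col-0 library it was 2.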

How the data were processed

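Polyadenylated RNA of whole seedlings was sequenced from 6 libraries in 3 groups of 2. The authors trimmed the reads, aligned them with TopHat2 to TAIR10, counted reads per gene with HTSeq and deposited raw counts. The kit does not mark strand. MC columns carry another line number than the labels and were matched by construct and replicate number. All columns of the table were used.

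Counts were tested with edgeR 4.0.16 in R 4.3.3 (TMM scaling, filterByExpr, quasi-likelihood fit over all 6 libraries, Benjamini-Hochberg adjustment, threshold 0.05), tested first on simulated data. Scaled CPM and CPM per kb of annotated exon were computed from the counts. Standard errors were derived from the log2 fold change and its F statistic. Alternatives were DESeq2 1.42.0, its size factors, library size alone, other filters, the legacy quasi-likelihood fit, fits of 2 groups, a replicate block and leaving out each library. Coordinates and sequence are from the RefSeq TAIR10.1 annotation and genome, in which 97.3% of the listed genes were found, and promoter windows were read from it. The upstream region of *JAZ1* is not reported here. The members and lists were chosen with earlier results of these data known. All members are named. From each list at most 4 called genes with the largest change in MA-Line1 were named, together with *COI1*, *NINJA*, *MYC2*, *MYC3*, *MYC4* and the other *JAZ* genes. The 5 genes most like the mean pattern were named by Pearson's r. *ZIM*, *TPR2*, *TPR4* and *EIN3* were named outside the rule of at most 4 called genes per list. *PRR5* and the other clock genes, *PYK10*, *CYP94C1* and *CYP94B3* were named after their values were seen. Seed storage markers were too low to test, and neither of 2 pollen markers was called in any comparison.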

Additional observations from a re-analysis of the deposited data

How the results depend on the processing

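Across 14 alternatives 390 of 420 member values kept their direction and their side of the threshold. All 10 members were called lower in MA-Line1 against Col-0 under every alternative except library size alone, where 7 were, and the leave-one-out fits, which gave 7 to 10. In MC-Line3 against Col-0 8 members were called under every alternative. Between MA-Line1 and MC-Line3, 7 members were called, with 4 to 8 when a library was left out. Of these, 1 was called lower, against 0 with library size alone, 2 with only those 2 groups fitted, and 0 to 2 when a library was left out. Values near zero changed sign: *JAZ3* in MC-Line3 against Col-0 was 0.09 with library size alone and −0.11 to 0.03 when a library was left out, positive without MC-Line3 replicate 1, and *JAZ10* between the lines was −0.02 to 0.08 when a library was left out, negative without replicate 1 of either line. The causes were not tested.

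With library size alone, 7049 genes were called higher and 2567 lower in MA-Line1 against Col-0, beside 3866 and 4122 with TMM, and 5379 higher and 2367 lower in MC-Line3, beside 3067 and 3553. Between the lines 2811 genes were called lower with only those groups fitted, beside 1830. Leaving out a library gave 2070 to 4164 higher and 2323 to 4249 lower in MA-Line1, 1504 to 3535 higher and 1943 to 4061 lower in MC-Line3, and 1343 to 3380 higher and 713 to 2797 lower between the lines.

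Replicates share only a number: the differences between replicates 1 and 2 correlated at −0.013, −0.053 and 0.032 between pairs of groups. With a replicate block 10, 8 and 7 members were called in the 3 comparisons, as without it, and 3710 genes were called higher and 3956 lower in MA-Line1 against Col-0. With 2 libraries a group, spread is borrowed across genes. *JAZ8* and AT3G22275 have the fewest counts in MC-Line3.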
